A study of Mus musculus with 9 samples.

Results

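The mevalonate pathway enzymes described here are 9 genes in the order of the steps they carry out from acetyl-CoA to squalene: Acat2, Hmgcs1, Mvk, Pmvk, Mvd, Idi1, Fdps, Ggps1 and Fdft1. The 9 names were fixed with earlier results of these data known, and every array probe that the platform annotation gives one of these symbols was taken. A named probe was found for 6 of the 9 genes, of 16593 genes named on the array. Of these 6, 5 were bright enough to be measured (Hmgcs1, Pmvk, Mvd, Idi1 and Fdps), among 7354 genes measured in all. Ggps1 had 2 probes that stayed at background, and Acat2, Mvk and Fdft1 are not analysed here because no probe carries their symbols.

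Mouse salivary gland cancer stem cells of strain C57BL/6, isolated as a primary culture and grown with serum replacement, were left for 24 h with LF3, with ICG-001 or with the solvent DMSO. Each treatment has 3 Illumina bead arrays of total RNA, 9 arrays in all. Both act on Wnt signalling: LF3 is known to disrupt the contact of β-catenin with TCF4, and ICG-001 its contact with the CBP coactivator. The labels give no dose and no number of cultures, so the spread between arrays of a treatment may be technical.

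The mevalonate pathway condenses acetyl-CoA into HMG-CoA, reduces it to mevalonate, and turns mevalonate into the isoprenoid unit isopentenyl diphosphate. Farnesyl diphosphate synthase joins these units into farnesyl diphosphate, from which cells make cholesterol, dolichol, the side chains of ubiquinone and heme A, and the lipid anchors of small GTPases. In mammals the genes of the pathway are known targets of the SREBP transcription factors, which are released when membrane sterol falls, and which bind promoters beside NF-Y and Sp1.

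Promoters are shown for 3 of the 5 measured enzymes, all of which were lower in cells given ICG-001, because the pathway's known regulators bind such promoters and these 3 hold matches to more than 1 of the motifs looked for. They are RefSeq sequences on build GRCm38.p6 from 150 bases before each gene's start to the base before it, written 5′ to 3′ on the gene's strand. Capitals mark the letters of 3 motifs looked for on both strands: TCACNCCAC (an SREBP element), CCAAT (the NF-Y box) and GGGCGG (the Sp1 box). No match overlapped another. The Hmgcs1 window is chr13:119690201-119690350 on the plus strand, the Mvd window chr8:122443423-122443572 on the minus strand, and the Idi1 window chr13:8885456-8885605 on the plus strand.
Hmgcs1: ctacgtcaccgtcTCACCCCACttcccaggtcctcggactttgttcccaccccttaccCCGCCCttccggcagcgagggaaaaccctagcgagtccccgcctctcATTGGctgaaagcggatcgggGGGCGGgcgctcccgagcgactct
Mvd: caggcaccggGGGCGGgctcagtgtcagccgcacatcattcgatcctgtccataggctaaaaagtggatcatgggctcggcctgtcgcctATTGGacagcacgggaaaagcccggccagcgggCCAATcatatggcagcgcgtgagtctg
Idi1: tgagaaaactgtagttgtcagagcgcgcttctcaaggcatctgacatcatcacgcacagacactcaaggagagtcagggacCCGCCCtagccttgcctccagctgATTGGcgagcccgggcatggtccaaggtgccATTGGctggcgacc

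The Hmgcs1 window held the SREBP letters TCACCCCAC at positions -137 to -129 from the start, with an NF-Y box on the other strand at -45 to -41. Mvd had an NF-Y box on each strand, at -60 to -56 and -27 to -23, and Idi1 had 2 on the other strand, at -45 to -41 and -14 to -10. Over the 250 bases before the start, promoter entries were matched for 7 of the 9 genes, with 8 windows since Pmvk has 2. The SREBP letters stood in 1 of these 8 windows, against 1.05% of all 32851 windows in the table. The NF-Y box stood in 6 of 8, against 33.9% of all windows, and the Sp1 box in 5 of 8, against 32.7%. Pmvk is not shown: its first window held 1 NF-Y box and its second none of the 3 motifs. Fdps and Fdft1 had no matched entry. These are matches of letters, and no binding was measured.

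Every LF3 array had a lower mean signal than every DMSO array. Median signal overlapped, at 58.8 to 62.1 with LF3 and 61.4 to 66.5 with DMSO, as did the number of detected probes. Mean signal was 340.0 to 396.5 on LF3 arrays, 368.3 to 409.4 on ICG-001 arrays and 398.2 to 467.3 on DMSO arrays, and 9939 to 10897 of 25697 probes per array were detected (38.7% to 42.4%). Log2 intensities correlated at 0.987 to 0.994 within a treatment and at 0.961 to 0.984 between treatments. The labelled cell type was checked against markers: Krt5, Krt14, Trp63 and Cd24a were detected on no array, as were the epithelial markers Cdh1, Krt18 and Krt19 and the acinar markers Bhlha15, Amy1 and Pip. The other acinar markers, Aqp5, Slc12a2 and Xbp1, were detected on all 9 arrays and the epithelial marker Krt8 on 8, and of the basal and progenitor markers Itgb1, Cd44 and Aldh3a1 were detected on 9 and Sox9 on 8. Both leukocyte markers with a probe, both endothelial markers, and 2 of 4 fibroblast markers (Col1a2, Dcn) were detected on no array, while Pdgfra was detected on 9 and Col1a1 on 5.

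With ICG-001, all 5 measured enzymes passed as lower than with DMSO, and with LF3 1 of the 5, Hmgcs1, did. The falls with ICG-001 ran from 2.05-fold for Hmgcs1 and Pmvk to 5.28-fold for Fdps. Among all genes, 18.9% passed as lower with ICG-001 and 11.4% as lower with LF3. The median difference of the 5 enzymes was -1.49 on the log2 scale with ICG-001, where the median over all genes was 0.00. With LF3 it was -0.33, where the median over all genes was 0.01. Both comparisons use the same 3 DMSO arrays. Levels are on the log2 scale after background correction and quantile normalization. To pass, a gene needed a limma p below 0.05 after Benjamini-Hochberg adjustment over all probes kept. In RNA from a whole culture, fewer cells of a type and less RNA per cell cannot be told apart.

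**Figure D1:**
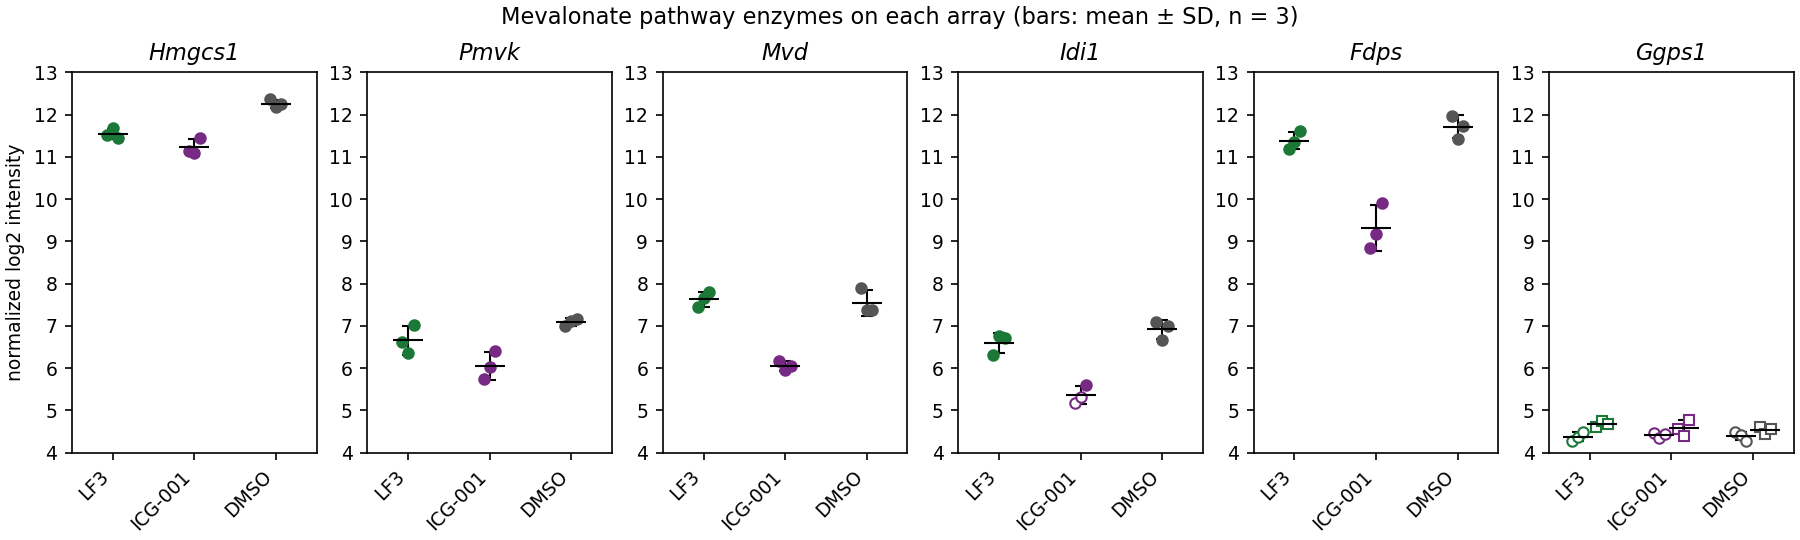
Normalized log2 intensity (vertical axis) of each mevalonate enzyme with a probe on the LF3, ICG-001 and DMSO arrays, with bars for mean ± SD of 3 arrays; filled points were detected and open points were not. Fdps lies between 8.85 and 9.92 on the ICG-001 arrays and above 11 on all others, while both Ggps1 probes are open on every array.

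Hmgcs1, which condenses acetoacetyl-CoA with acetyl-CoA into HMG-CoA, passed as lower with both compounds. Its log2 intensity was 11.51, 11.68 and 11.45 on the LF3 arrays, 11.13, 11.10 and 11.45 on the ICG-001 arrays, and 12.36, 12.17 and 12.24 on the DMSO arrays. Every array of either compound lay below every DMSO array. In deposited signal this was 2303 to 3023 with LF3, 2327 to 2661 with ICG-001 and 4790 to 6038 with DMSO. The difference LF3 minus DMSO was -0.71 (95% confidence interval -0.99 to -0.43), a 1.64-fold fall, with a limma adjusted p of 0.00192. For ICG-001 minus DMSO it was -1.03 (-1.31 to -0.76), a 2.05-fold fall, with a limma adjusted p of 3.57e-05. Hmgcs1 stood 197th from the lowest difference of 7354 genes with LF3 and 175th with ICG-001.

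The direct difference between the compounds did not pass for Hmgcs1 after adjustment, with a limma p of 0.0249 before it. LF3 minus ICG-001 was 0.32 (0.05 to 0.60), with a limma adjusted p of 0.0599, and the highest ICG-001 array reached the lowest LF3 array. This difference passed under 6 of 20 alternatives, among them the fit without ICG-001 replicate 3 (0.43, adjusted p 0.0273), and its adjusted p ranged from 0.022 to 0.341. The fall with LF3 passed under all 20, at -0.90 to -0.65.

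Pmvk, which adds the second phosphate to mevalonate, was a dim probe that fell with ICG-001. Its log2 intensity was 6.61, 6.35 and 7.02 on the LF3 arrays, 5.74, 6.02 and 6.40 on the ICG-001 arrays and 7.00, 7.10 and 7.17 on the DMSO arrays. The 3 ICG-001 arrays lay below the DMSO arrays, whereas the highest LF3 array lay within the DMSO range. In deposited signal, before normalization, LF3 was also below DMSO, at 104.6 to 139.2 against 178.4 to 218.8, with ICG-001 at 89.7 to 114.4. ICG-001 minus DMSO was -1.03 (-1.42 to -0.65), a 2.05-fold fall, with a limma adjusted p of 0.00057. LF3 minus DMSO was -0.43 (-0.82 to -0.04) with an adjusted p of 0.104, and this became -0.62 with an adjusted p of 0.03 without LF3 replicate 3. LF3 minus ICG-001 was 0.60 (0.22 to 0.99), 1.52-fold, with an adjusted p of 0.017, although the LF3 and ICG-001 arrays overlapped. That call was lost without ICG-001 replicate 1 (0.44, adjusted p 0.0845), without ICG-001 replicate 2 (0.58, 0.0503), without LF3 replicate 3 (0.43, 0.0743), and with no filter on dim probes (adjusted p 0.0717).

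Mvd, the decarboxylase that makes isopentenyl diphosphate, fell with ICG-001 and was close to the DMSO level with LF3. Its log2 intensity was 7.44, 7.66 and 7.79 on the LF3 arrays, 6.17, 5.95 and 6.04 on the ICG-001 arrays, and 7.89, 7.37 and 7.36 on the DMSO arrays. On this scale the LF3 arrays lay inside the DMSO range and the ICG-001 arrays all lay below it. In deposited signal, before normalization, LF3 was also below DMSO, at 203.6 to 208 against 208.5 to 314.7, with ICG-001 at 96.7 to 109.1. ICG-001 minus DMSO was -1.49 (-1.82 to -1.16), a 2.81-fold fall, with a limma adjusted p of 7e-06. LF3 minus DMSO was 0.09 (-0.24 to 0.42), with an adjusted p of 0.726. This value changed sign, still without passing, in the fit without DMSO replicate 3 and with median scaling. Between the compounds the difference LF3 minus ICG-001 was 1.58 (1.25 to 1.91), 2.98-fold higher with LF3, with an adjusted p of 6.34e-06, the 23rd highest of 7354 genes.

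Idi1, the isomerase that converts isopentenyl diphosphate into dimethylallyl diphosphate, came close to background in the ICG-001 cells. Its deposited signal was 113, 126 and 119 with LF3, 72.7, 76.7 and 80.1 with ICG-001, and 197, 142 and 199 with DMSO. Only ICG-001 replicate 3 counted as detected among the 3 ICG-001 arrays, with detection p-values of 0.0125, 0.0113 and 0.00125. Log2 intensity was 6.31, 6.76 and 6.70 on the LF3 arrays, 5.17, 5.33 and 5.59 on the ICG-001 arrays and 7.10, 6.67 and 6.99 on the DMSO arrays. The ICG-001 arrays lay below all others, and LF3 overlapped DMSO. ICG-001 minus DMSO was -1.56 (-1.90 to -1.22), a 2.94-fold fall, with a limma adjusted p of 6.56e-06. Its size depended on the background step, at 1.86-fold with no background correction and 4.21-fold on the authors' processed values. LF3 minus ICG-001 was 1.23 (0.89 to 1.57), 2.35-fold and 1.59-fold with no background correction, with an adjusted p of 5.89e-05. LF3 minus DMSO was -0.33 (-0.67 to 0.02), with an adjusted p of 0.16.

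Fdps, which builds farnesyl diphosphate, had the largest fall of the 5 enzymes. Its deposited signal was 2384, 2310 and 2583 with LF3, 511, 659 and 944 with ICG-001, and 4366, 2850 and 4276 with DMSO. Its log2 intensity was 11.19, 11.36 and 11.60 on the LF3 arrays, 8.85, 9.18 and 9.92 on the ICG-001 arrays and 11.97, 11.43 and 11.74 on the DMSO arrays. The ICG-001 arrays stood apart from all the others, and they were also the most spread, with an SD of 0.55 against 0.21 with LF3 and 0.27 with DMSO. ICG-001 minus DMSO was -2.40 (-2.88 to -1.92), a 5.28-fold fall, with a limma adjusted p of 2.88e-06, the 5th lowest of 7354 genes. LF3 minus DMSO was -0.33 (-0.81 to 0.15), with an adjusted p of 0.313 and overlapping arrays. For LF3 minus ICG-001 it was 2.07 (1.59 to 2.55), 4.19-fold, with an adjusted p of 1.49e-05. Fdps and Pmvk both lie on chromosome 3, with 27 protein-coding genes between them in the GRCm38.p6 annotation.

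Ggps1, which extends farnesyl diphosphate to geranylgeranyl diphosphate, was not well above background with either probe on any array. Its signals were 42.4 to 61.0 over both probes and all arrays, with detection p-values from 0.0739 to 0.964. No fold is given for it.

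**Figure D2:**
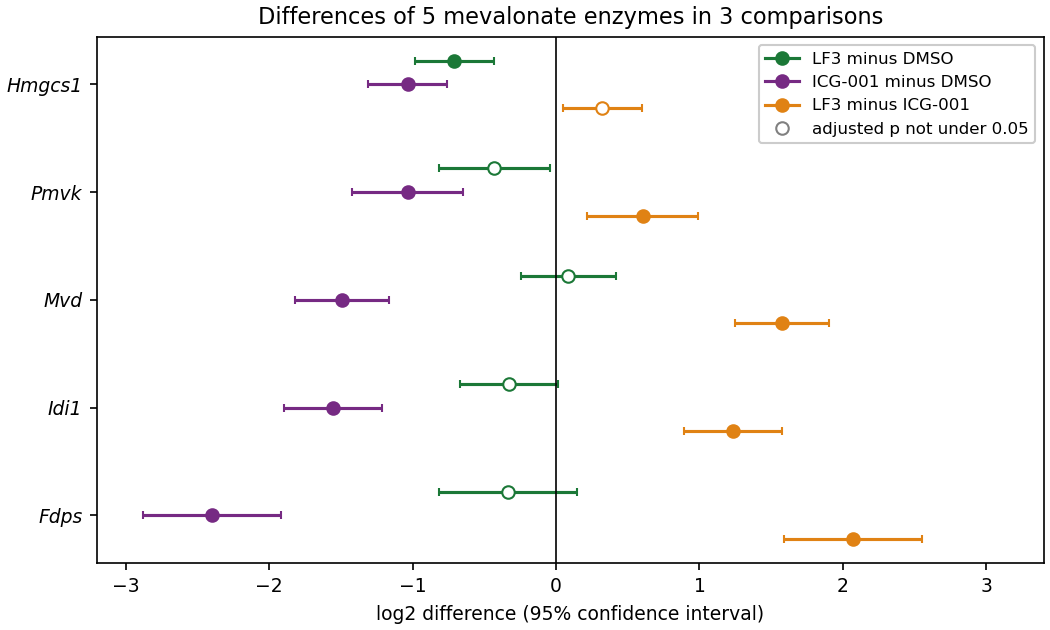
Log2 differences (horizontal axis) of the 5 measured enzymes with 95% confidence intervals, for LF3 minus DMSO, ICG-001 minus DMSO and LF3 minus ICG-001; filled points passed at an adjusted p under 0.05. All 5 ICG-001 points are filled and lie between -2.40 and -1.03, whereas the LF3 minus DMSO points lie between -0.71 and 0.09 with only Hmgcs1 filled.

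Set directly against each other, LF3 and ICG-001 differed in 4 of the 5 enzymes, all higher with LF3, although for Pmvk the arrays overlapped. Of all genes, 20.2% passed as higher with LF3 than with ICG-001. The median difference of the 5 enzymes was 1.23 on the log2 scale, against 0.00 over all genes. Since the labels give no dose, the 2 compounds are compared as they were used, at doses that may differ.

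How the arrays were scaled bears on the LF3 counts. With median scaling in place of quantile normalization, the median difference over all genes moved to -0.24 with LF3 and to -0.10 with ICG-001, each against DMSO, and to -0.14 between the compounds. With LF3, 203 genes then passed as higher and 2140 as lower, where quantile normalization gave 810 and 835. With ICG-001 the counts were 832 higher and 1554 lower, where quantile normalization gave 1380 and 1393. Between the compounds 733 were higher and 1942 lower with LF3, where quantile normalization gave 1489 and 1434. Under that scaling 4 of the 5 enzymes passed as lower with LF3, all but Mvd. Relative to the shifted median of all genes, the LF3 differences were -0.66 for Hmgcs1, -0.47 for Pmvk, 0.02 for Mvd, -0.38 for Idi1 and -0.27 for Fdps. The 5 calls for ICG-001 minus DMSO held under every alternative in which the gene was tested.

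The order of the falls among the 5 enzymes, Fdps first, depended on how background was treated. On the means of the authors' deposited processed values, ICG-001 was below DMSO by 5.17-fold for Fdps, 4.16-fold for Idi1, 3.43-fold for Mvd, 2.33-fold for Pmvk and 2.04-fold for Hmgcs1. With no background correction, ICG-001 minus DMSO was -2.30 for Fdps, -1.02 for Hmgcs1, -1.01 for Mvd, -0.89 for Idi1 and -0.66 for Pmvk. Fdps had the largest fall in both, whereas Hmgcs1, the smallest of the 5 in the authors' values, was next to Fdps without background correction.

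The 5 enzymes followed each other across the 9 arrays. Each correlated with the mean of the other 4 at 0.81 (Hmgcs1) to 0.99 (Idi1), values that include the differences between treatments. Within treatments, deviations from the group mean correlated at -0.08 for Pmvk with Mvd up to 0.84 for Idi1 with Fdps, over 9 arrays that share one brightness scale. ICG-001 replicate 3 was the highest ICG-001 array for Hmgcs1, Pmvk, Idi1 and Fdps, though not for Mvd, and its mean deviation was 0.28, against -0.19 and -0.09 for the other ICG-001 arrays.

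Outside the pathway, the 6 genes most like the enzymes' mean centred profile, by Pearson r over 9 arrays among 7349 genes, were Ap4m1 (0.991), Hsd17b7 (0.982), Hmox2 (0.982), Ptpn6 (0.975), Gamt (0.971) and Prpf3 (0.971). Hsd17b7 is itself a cholesterol synthesis enzyme. Its log2 intensity averaged 8.98 ± 0.11 with LF3, 8.41 ± 0.11 with ICG-001 and 9.16 ± 0.05 with DMSO. Gamt, which makes creatine, differed most of the 6, at 6.16 ± 0.29 with LF3, 4.60 ± 0.12 with ICG-001 and 6.60 ± 0.16 with DMSO. Its ICG-001 level lay within the group means of the undetected Ggps1 probes (4.38 to 4.67), so its difference may be limited by background.

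**Figure D3:**
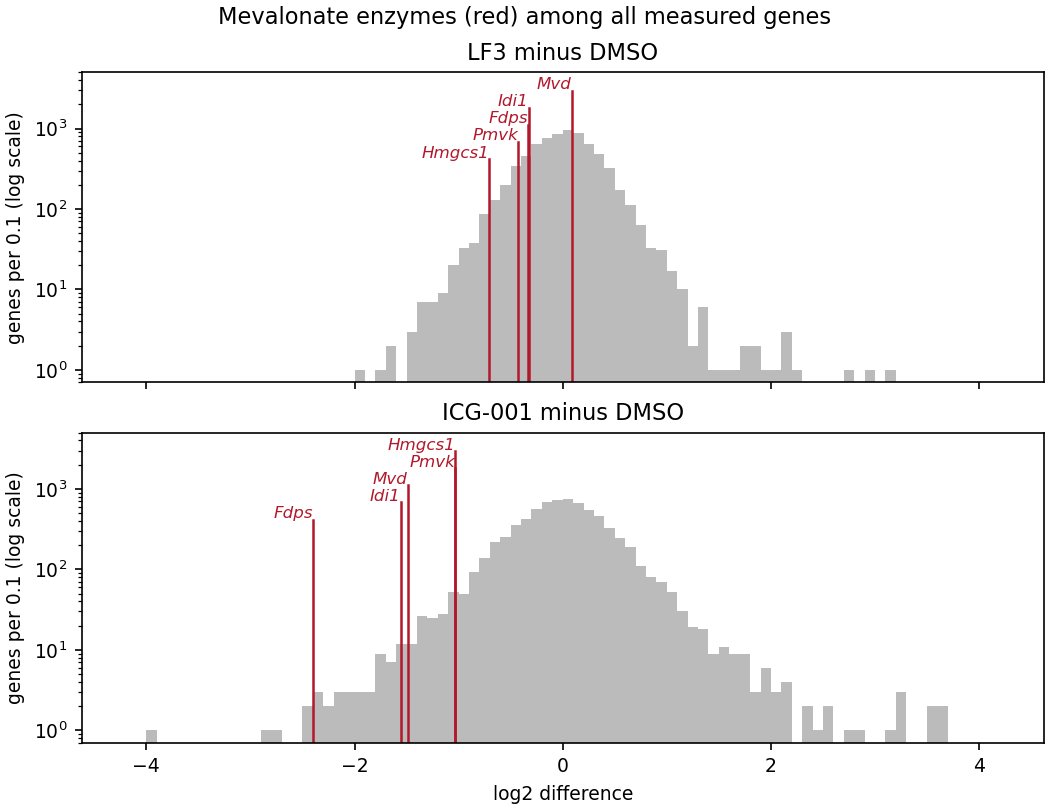
Number of measured genes (vertical axis, log scale, bins of 0.1) by log2 difference for LF3 minus DMSO (upper panel) and ICG-001 minus DMSO (lower panel), with red lines at the 5 enzymes; both panels share the DMSO arrays. The red lines run from -0.71 to 0.09 for LF3 and from -2.40 to -1.03 for ICG-001.

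The steps from squalene to cholesterol, which follow the mevalonate pathway, were lower with ICG-001 and in part with LF3. All 10 measured genes of the squalene to cholesterol list passed as lower with ICG-001, with a median of -0.89, where 18.9% of all genes did so. With LF3 7 of the 10 passed as lower, with a median of -0.54, where 11.4% of all genes did so. For LF3 that count ranged from 5 to 10 over the alternatives, with 10 under median scaling, where 2140 of all 7354 genes passed as lower. Lss, lanosterol synthase, was lower with both: 8.27 with LF3 and 7.54 with ICG-001, against 9.01 with DMSO (LF3 minus DMSO -0.74, adjusted p 0.00638; ICG-001 minus DMSO -1.47, 1.38e-05; limma). Msmo1, which oxidises methylsterols, was likewise lower with LF3 (-0.86, 0.00353) and with ICG-001 (-1.32, 5.31e-05). Nsdhl, a sterol dehydrogenase, fell with ICG-001 (-1.79, 6.38e-06), and its LF3 difference was -0.45 (0.0907), which passed in 3 of 20 alternatives, median scaling and the fit without DMSO replicate 2 among them (lowest 0.00324). Another Nsdhl probe passed as lower with LF3 (-0.57, 0.00764), while the remaining probes gave -0.38 (0.179) and -0.30 (0.092). Lbr, which combines a lamin receptor with sterol reductase activity, was lower with ICG-001 (-1.14, 7.1e-06) and with LF3 (-0.39, 0.0322), the LF3 call being lost in 6 of 20 alternatives, which were the replicate block and the fits without DMSO replicate 2, DMSO replicate 3 or any of the LF3 arrays (highest 0.136). Between the compounds, 5 of the 10 passed as higher with LF3 than with ICG-001, where 20.2% of all genes did so, with a median of 0.38.

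Of the 8 measured genes of sterol sensing and uptake, 3 passed as lower and 1 as higher with ICG-001, where 18.9% and 18.8% of all genes did so. With LF3 1 of the 8 passed as lower, where 11.4% of all genes did. Between the compounds, 5 of the 8 were higher and 2 lower with LF3 than with ICG-001, where 20.2% and 19.5% of all genes were. Under median scaling 2 were higher and 2 lower, where 733 and 1942 of all 7354 genes were. Stard4, which carries cholesterol between membranes, was lower with ICG-001 (7.49) and LF3 (8.67) than with DMSO (9.31), at -1.82 (limma adjusted p 2.85e-06) and -0.64 (0.0165); the LF3 call was lost without LF3 replicate 2 and with no filter on dim probes (highest adjusted p 0.0659). Insig1, which holds the SREBP escort in the endoplasmic reticulum, was lower with ICG-001 (-0.70, 0.00081), and its other 2 probes gave -1.01 and -1.18. Its LF3 difference was -0.07 (0.724) with the brightest probe and -0.44 (0.0386) with another. Mbtps1, the protease that releases SREBP, was -0.36 with ICG-001 (0.0476), a call lost in 11 of 20 alternatives and not made by its other probes. Nr1h3, the liver X receptor alpha, was higher with ICG-001 (0.53, 0.00642). Its probe was dim, with a DMSO signal of 83.2 to 95.1 and detection on 2 of 3 DMSO arrays. The difference ran from 0.26 to 0.76 over the alternatives, and Nr1h3 was not tested with the filter on detection on all 9 arrays.

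The next list holds genes whose products use prenyl diphosphates or act on prenylated proteins. Among 15 measured, 6 passed as higher with ICG-001, where 18.8% of all genes did so, and 0 as lower (limma at an adjusted p under 0.05; 1 at an unadjusted p below 0.05, and 0 to 2 over the alternatives). With LF3, 3 were higher and 1 lower, where 11.0% of all genes passed as higher and 11.4% as lower. Under median scaling 0 were higher and 4 lower, where 203 and 2140 of all 7354 genes were. With the mean of probes per gene 3 were higher and 4 lower, where 868 and 888 of all 7354 genes were. Between the compounds, 5 of the 15 passed as lower with LF3 than with ICG-001, where 19.5% of all genes did so. With ICG-001 the differences were 0.80 for Trit1, which isopentenylates transfer RNA (adjusted p 0.000306), 0.64 for Cox10, the heme farnesyltransferase (0.000398), 0.56 for Rce1, which trims prenylated proteins (0.00151), and 0.48 for Nus1, a dolichol synthesis subunit (0.00441). Cox10 (0.40, 0.018) and Nus1 (0.46, 0.0117) also passed with LF3, but not under median scaling or without DMSO replicate 3 (highest adjusted p 0.385 for Cox10 and 0.246 for Nus1), nor, for Cox10, without DMSO replicate 2.

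Upstream of the pathway, 4 of 5 measured genes of acetyl-CoA supply and related thiolases passed as lower with ICG-001, where 18.9% of all genes did so. Without ICG-001 replicate 2, 2 of 5 did, where 1108 of all 7354 genes passed as lower. With LF3 0 of the 5 passed in limma, where 11.4% of all genes passed as lower and 11.0% as higher. At an unadjusted p below 0.05, 2 of the 5 did, both lower, and no share of all genes was computed there. Acaa2, a mitochondrial thiolase of fatty acid oxidation, was the most lowered, at 9.78 with LF3 and 8.70 with ICG-001, against 9.85 with DMSO (ICG-001 minus DMSO -1.15, adjusted p 8.62e-06; LF3 minus DMSO -0.08, 0.687). Acly, which splits citrate into acetyl-CoA, was lower with ICG-001 by a difference of -0.45 (0.00629). Acss2, which makes acetyl-CoA from acetate, had -0.41 (0.0116), a call lost without ICG-001 replicate 2 (0.054). Slc25a1, the citrate carrier, had -0.45 (0.0143), a call lost without DMSO replicate 1 or ICG-001 replicate 2 (highest 0.0528) and not made by its other probe (-0.28, 0.183).

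Of the 11 measured prenylated GTPases, 2 passed as lower and 2 as higher with ICG-001, shares near the 18.9% and 18.8% of all genes. With LF3 1 of the 11 passed, Rab5a, as higher, where 11.0% of all genes passed as higher and 11.4% as lower. Its difference was 0.41 (limma adjusted p 0.0426). That call was lost in 12 of 20 alternatives (highest 0.439), 7 fits without 1 array and median scaling among them. Rhob was higher with ICG-001 at 9.95, against 8.65 with DMSO (1.31, 2.47-fold, limma adjusted p 0.000118), and was 8.48 with LF3 (-0.17, 0.565). Rab5a, a GTPase of early endosomes, was also higher with ICG-001 (0.69, 0.00128), while its other probe gave 0.34 (0.0703). Rac1 (-0.75, 0.00205) and Rab7, of late endosomes (-0.66, 0.00103), were lower, and 1 of the other Rab7 probes gave -0.30 (0.253).

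**Figure D4:**
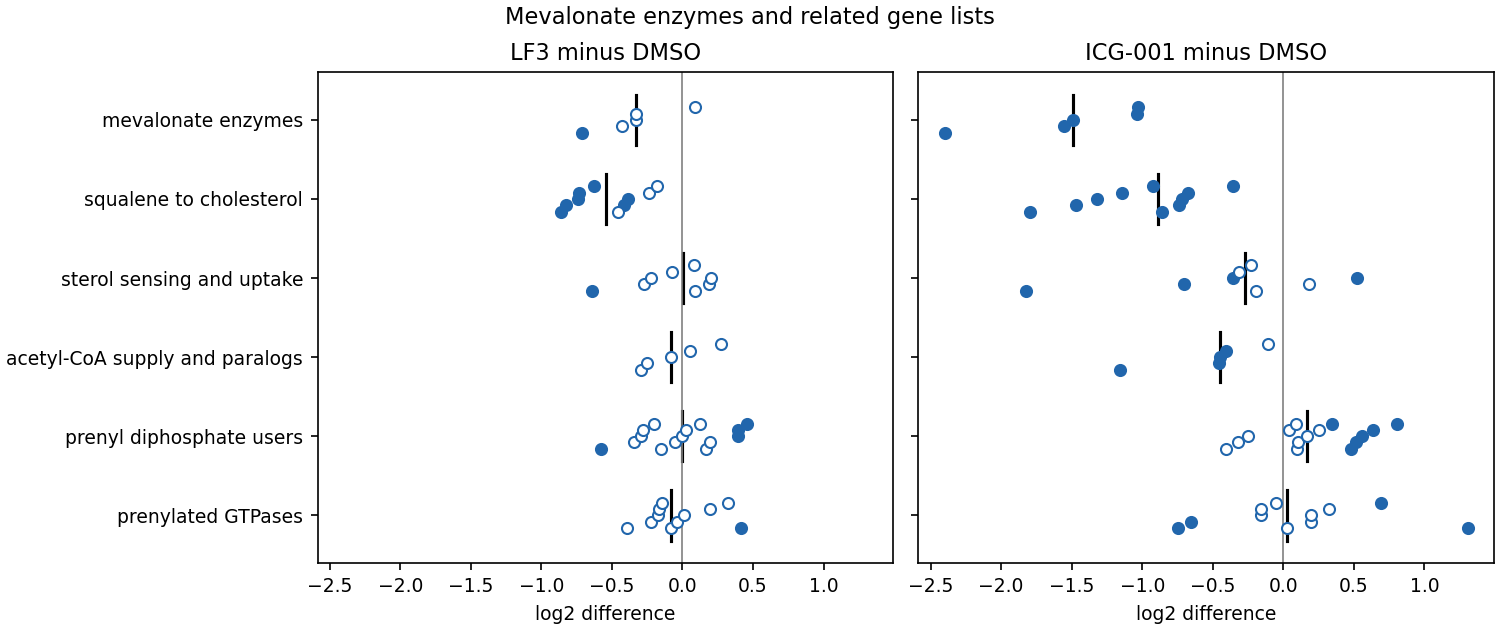
Log2 differences of the measured genes of the mevalonate pathway and 5 related lists for LF3 minus DMSO and ICG-001 minus DMSO, with filled points for adjusted p under 0.05 and a black tick at each list's median. The mevalonate enzymes and the squalene to cholesterol list sit lowest for ICG-001, with medians of -1.49 and -0.89, and the prenyl diphosphate users have a median of 0.17.

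Some marker genes moved with ICG-001 as well. The summed level of the 8 basal and progenitor markers was 19106 to 20959 on LF3 arrays, 9049 to 10505 on ICG-001 arrays and 19030 to 20776 on DMSO arrays, a sum made up mostly of Aldh3a1, with 4 of the 8 markers undetected. Aldh3a1 averaged 14.24 with LF3, 13.13 with ICG-001 and 14.22 with DMSO (ICG-001 minus DMSO -1.09, limma adjusted p 8.65e-06), whereas Cd44 of the same list was higher with ICG-001 (0.54, 0.0019) and Itgb1 had 0.26 (0.123). Of the acinar markers, Aqp5 was lower with ICG-001 (-0.72, 0.000401) and Slc12a2 higher (0.38, 0.028). The summed fibroblast level was 95.1 to 142 with LF3, 105 to 111 with ICG-001 and 121 to 189 with DMSO. Their part in the lower mevalonate enzymes was not tested.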

How the data were processed

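RNA was measured on 9 Illumina bead arrays, 3 each for LF3, ICG-001 and DMSO, with groups and replicate numbers from the sample titles. Per the file headers, the deposited table pairs each intensity with a detection p-value, by probe and array; the submitters' processing notes list GenomeStudio 2010.1. The detection p-value columns, deposited without sample names, were matched by their place after each intensity column, and 0 columns stayed unmapped. The authors' deposited processed intensity values, whose normalization is not given in the sources used here, served as an alternative.

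Background was corrected by the normexp model with the detection p-values (offset 16), followed by log2 transformation and quantile normalization across arrays. Probes with a detection p under 0.01 on at least 3 of 9 arrays were kept (10830 of 25697), and the brightest probe stood for a gene. The offset shrinks differences of dim genes. One limma 3.58.1 fit (R 4.3.3; lmFit, eBayes) covered all arrays, with two-sided p-values adjusted by Benjamini-Hochberg and a threshold of 0.05. The number of arrays limits the precision.

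The 9 enzymes and the related lists were chosen with earlier results of these data known. From each related list, at most 4 genes that passed against DMSO were named, by lowest adjusted p, with the 6 most correlated genes. Older symbols were looked up where needed. Background, scaling, filter, probe, trend, weight and replicate alternatives were run, the related lists' after seeing the data. The fit was tested on simulated data. The arrays were all distinct, with 0 identical pairs. Deviations of same-numbered arrays were at most weakly correlated, so replicate numbers were not used as pairs.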

Additional observations from a re-analysis of the deposited data

How the results depend on the processing

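Under 20 alternatives, 297 values of single enzymes were recomputed. Of these, 280 kept their direction and side of the threshold, 4 lost a call, 11 gained one and 2 changed sign. The count of enzymes lower with LF3 than with DMSO was 1 as reported, 4 with median scaling, 2 with array weights, and 1 to 2 when each array was left out in turn. Mvd, LF3 minus DMSO, turned to -0.22 with median scaling (limma adjusted p 0.335) and to -0.0027 without DMSO replicate 3 (0.993), within a range of -0.0027 to 0.2605 when each array was left out. The number of genes passing for LF3 minus DMSO, 1645 as reported, ran from 877 (without DMSO replicate 2) to 1878 over the fits that left out an array. It was 933 without DMSO replicate 3 and 1017 without LF3 replicate 2. The cause was not tested. Idi1 was not tested with the filter on detection on all 9 arrays.

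With the replicate number as a block, 1464, 2645 and 2797 genes passed with LF3, with ICG-001 (each against DMSO) and between the compounds, and 1, 5 and 4 of the enzymes, with no enzyme's call changed. Deviations of same-numbered arrays correlated at -0.233 to 0.143, over 0.1 in 2 of 9 pairs. Of the 9 arrays, 4 correlated best with their own number. The numbers were therefore not used as pairs, though 9 arrays are too few to tell whether same-numbered ones belong together.

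Each treatment has 3 arrays, doses are unknown, and whether the arrays come from separate cultures is not stated. Pmvk, Mvd and Idi1 are dim, so their folds depend on the background step. Of the 9 enzymes, 5 were measured.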
